A study of Mus musculus with 12 samples.

Results

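The genes described here are 40 genes of the NRF2 pathway and of the glutathione and thioredoxin antioxidant systems. They were chosen by name, with earlier results of these data known. All 40 were found among the 36875 gene symbols of the count table and passed the filter on low counts. RNA was sequenced from cultured fibroblast-like synoviocytes of mice, fibroblasts of the membrane that lines joints, in 12 poly(A)-selected libraries. In the 4 homeostasis libraries, which the sample descriptions call WT, the animals drank water with 5% sucrose over 3 weeks. In the 4 inflammation libraries (DOX ON) doxycycline at 1 mg/ml was added to that water over the same period, and in the 4 resolution libraries (DOX OFF) this course was then ended. The protocol ascribes the cells of every group to mice with arthritis induced by tumour necrosis factor, with RNA taken from cultured cells. Neither the transgene and its promoter, the genotype of the doxycycline groups, the animals' age nor the interval from withdrawal to harvest is stated in the labels. The design text names as its question the mechanisms by which activated synoviocytes may disturb endothelial cells during resolution.

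NRF2, encoded by Nfe2l2, is a transcription factor that is bound by KEAP1 and sent for degradation in unstressed cells. Electrophiles and oxidants modify KEAP1, and NRF2 then accumulates and drives genes that make glutathione, conjugate and export reactive compounds, reduce quinones and supply NADPH. Glutathione and thioredoxin pass electrons from NADPH to peroxidases that remove hydrogen peroxide and lipid peroxides, and superoxide dismutases and catalase work beside them. In the inflamed joint, synoviocytes meet oxidants released by infiltrating myeloid cells.

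Levels are in CPM, counts scaled to a common library size with TMM factors, as mean ± SD over n = 4 libraries where a mean is given. Fold changes are on the log2 scale with their standard error (SE). Adjusted p-values come from edgeR's quasi-likelihood test with Benjamini-Hochberg adjustment over all 15049 genes tested, and a gene is said to rise or fall only where this value was under 0.05. Nothing in the labels ties the libraries of a group to separate animals, so the p-values reflect the spread of these libraries, which may be technical. Total counts ran from 18120745 to 34971537 per library, and the member with the fewest counts, Gstt2, held 1819 over all libraries. Fibroblast markers (11 of 11 detected) summed to 27092 to 28869.5 CPM in homeostasis, 19836 to 22108 in inflammation and 10428 to 15445 in resolution. Against homeostasis, 2 were higher and 5 lower in inflammation, and 2 higher and 7 lower in resolution. The markers thus did not move together. Means of Dcn were 161, 972 and 897 CPM and of Cdh11 196, 301 and 373 CPM in homeostasis, inflammation and resolution. Those of Col1a1 were 9560, 8150 and 3118 CPM, of Vim 6394, 3612 and 3405 CPM and of Prg4 3212, 829 and 983 CPM. Macrophage markers (18, of which 17 were tested) summed to 143 to 179, 691 to 755 and 64.7 to 74.0 CPM, with 16 higher in inflammation and 12 lower in resolution, each against homeostasis. Chondrocyte markers summed to 868 to 1124, 36.9 to 45.4 and 63.9 to 95.2 CPM. Of 5 sex-linked transcripts, Xist rose and 4 from the Y chromosome fell in both comparisons against homeostasis. Sex and doxycycline therefore cannot be told apart there. The same holds for genotype if it differs, since homeostasis is called WT and the genotype of the doxycycline groups is not stated. The part of these markers in the results below was not tested. Tnf stood at 3.97 ± 2.20, 1.02 ± 0.518 and 0.308 ± 0.143 CPM in the 3 groups, given here and below in the order homeostasis, inflammation, resolution. Homeostasis libraries 1 and 2 lay apart from 3 and 4 for several genes, among them Gsta4, Gstt1, Gstt2, Sod2, Srxn1 and Hmox1, and each pair was also used alone as the controls. Where leaving out 1 library or another setting ended or made a call, it is named with the log2 fold change and the adjusted p it gave in brackets. Same-numbered inflammation and resolution libraries deviated together, so these 8 libraries were also fitted alone with the replicate number as a block, called the paired fit below, a choice made after seeing the data.

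In inflammation against homeostasis, 18 of the 40 genes rose and 6 fell, which is 45.0% and 15.0% of them. Over all genes tested 19.0% rose and 18.3% fell. The 40 genes were chosen with earlier results of these data known. How far that choice shaped their shares was not tested. The median log2 fold change of the 40 genes was 0.29, against -0.01 over all genes. In resolution against homeostasis, 19 rose and 4 fell (47.5% and 10.0%, against 27.5% and 25.8% of all genes), with a median of 0.24 against -0.01. Between resolution and inflammation, 7 rose and 1 fell (17.5% and 2.5%, against 8.52% and 7.64% of all genes), with a median of -0.05 against 0.02. At least 2-fold, 7 rose and 0 fell in inflammation (8.85% and 4.98% of all genes), 8 rose and 1 fell in resolution (15.2% and 8.25%), and 1 rose and 0 fell between resolution and inflammation (2.11% and 3.24%). In the paired fit 10 of the 40 genes rose and 6 fell between resolution and inflammation, where 32.6% of all genes passed in either direction. The 8 genes reported kept their calls, and Nfe2l2, Cat and Nqo1 passed upward and Gsta4, Gpx1, Prdx2, Tkt and Ftl1 downward in addition. Counting both directions in the fit to all libraries, 37.2%, 53.3% and 16.2% of all genes passed in the 3 comparisons. The comparisons share libraries, so their counts are not independent of each other. Counts by role below, of members and of further genes, rest on few genes each. They are to be set beside these shares of all genes. In these bulk libraries, fewer cells of a type and less RNA per cell cannot be told apart.

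Across the groups, 16 genes (40.0%) were higher in both doxycycline groups than in homeostasis, as were 15.8% of all genes. They were Gclc, Gclm and Gss of glutathione synthesis, the transferase genes Gsta3, Gsta4, Gstm1, Gstm2, Gstm5 and Mgst1, the peroxidase genes Gpx3 and Gpx8, Srxn1, Prdx1, Taldo1, Nqo1 and Fth1. Lower in both were 3 genes (7.50%, against 15.2% of all genes), Gsr, Gpx7 and Sod2. The 2 comparisons share their controls, and the 40 genes were chosen with earlier results known. Against homeostasis, 2 genes, Gpx1 and Sod3, rose in inflammation and did not pass in resolution, and 3 genes, Gstt1, Gstt2 and Txnrd1, fell in inflammation and did not pass in resolution. In resolution but not in inflammation, Nfe2l2, Cat and Ephx1 passed upward and Keap1 downward. Of these 4, Ephx1 also passed between resolution and inflammation, and Nfe2l2 and Cat did there in the paired fit. The remaining 12 genes passed in no comparison, although Gstp1, Prdx2, Prdx6, Tkt, Me1, Hmox1 and Ftl1 did under at least 1 alternative.

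**Figure D1:**
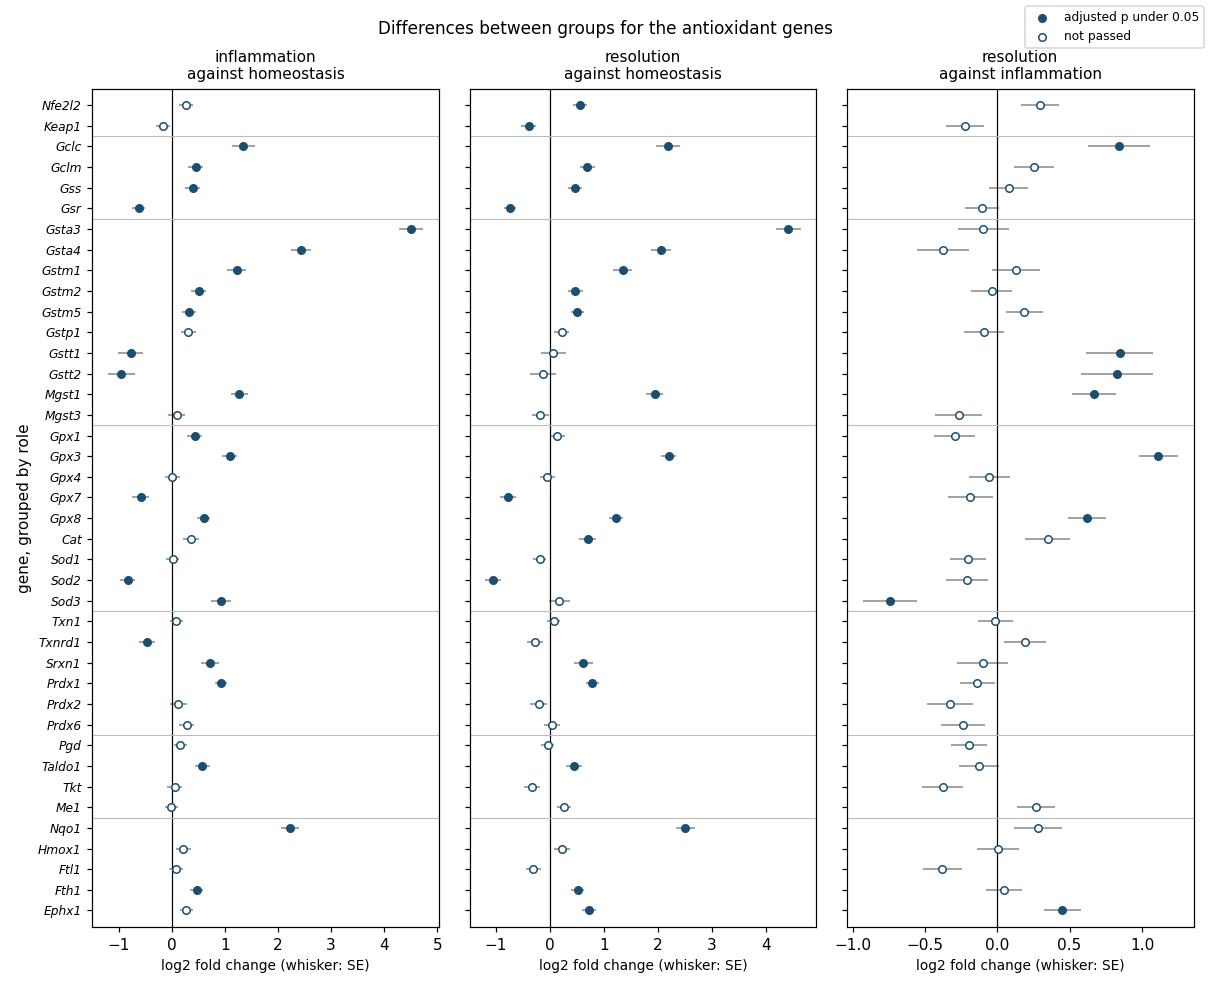
Log2 fold change (x axis, whiskers give the SE) of each of the 40 genes (y axis, grouped by role) in the 3 comparisons, with filled points for adjusted p under 0.05. Gsta3, Gsta4 and Nqo1 lie farthest to the right in inflammation against homeostasis (4.51, 2.44 and 2.22), and Gpx3 in resolution against inflammation (1.11). The horizontal scale differs between panels.

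NRF2 acts through antioxidant response elements, whose core was searched here as TGACNNNGC on both strands. The stretches searched ran from 250 bases before to 50 bases after the RefSeq gene start (build GRCm38.p6), and 33 of the 40 genes were found in that table. Gclc, Gsr, Gsta4, Gstt2, Hmox1, Prdx6 and Sod3 had no entry there and were not searched. Nqo1 was searched and held no core in these stretches. Of the 33, 11 held the core in at least 1 stretch (33.3%), against 14.0% of all 27025 genes there and 12.4% of the 32851 stretches. The 11 were Nfe2l2, Gclm, Gsta3, Gstm5, Mgst1, Sod1, Txnrd1, Srxn1, Prdx1, Pgd and Me1. Of these, 6 rose and 1 fell in inflammation against homeostasis, and 7 rose and 0 fell in resolution. Of the 22 genes in that table without the core, 9 rose and 3 fell in inflammation, and 10 rose and 3 fell in resolution. Of all 40 genes, 45.0% rose and 15.0% fell in inflammation, and 47.5% rose and 10.0% fell in resolution. Over all genes tested the shares were 19.0% and 18.3%, and 27.5% and 25.8%. Whether calls differ between genes with and without the core was not tested. A match of letters is a description and shows no binding. The stretches around the matches are printed for the genes that passed in a comparison and whose match lies wholly before the start. By this rule only genes with a call are shown. Of the others with the core, Sod1, Pgd and Me1 passed in no comparison, and the Srxn1 match lies after the start. A link between the core and the level changes given below was not tested. Capitals mark the core, shown as its reverse complement where it lies on the opposite strand. Each is 5′ to 3′ on the strand of the gene:
Nfe2l2 (chr2:75704865-75704913, - strand): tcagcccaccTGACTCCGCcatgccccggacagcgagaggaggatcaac
Gclm (chr3:122245393-122245461, + strand): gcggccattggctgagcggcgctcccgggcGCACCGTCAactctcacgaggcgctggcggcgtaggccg
Gsta3 (chr1:21240434-21240502, + strand): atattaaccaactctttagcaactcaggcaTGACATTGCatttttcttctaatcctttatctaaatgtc
Gstm5 (chr3:107895782-107895850, + strand): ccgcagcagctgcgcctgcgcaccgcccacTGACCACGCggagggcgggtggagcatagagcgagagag
Mgst1 (chr6:138140441-138140509, + strand): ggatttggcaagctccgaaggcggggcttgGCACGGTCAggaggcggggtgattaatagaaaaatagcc
Prdx1 (chr4:116685436-116685504, + strand): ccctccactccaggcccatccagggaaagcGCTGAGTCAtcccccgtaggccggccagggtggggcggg
Txnrd1 (chr10:82859084-82859152, + strand): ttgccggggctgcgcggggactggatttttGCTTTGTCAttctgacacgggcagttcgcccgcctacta
In Prdx1 the core begins 133 bases before the start, in Gclm 134, in Gsta3 121, in Txnrd1 92, in Mgst1 56 and in Gstm5 42, each counted to the base farthest from the start. The Nfe2l2 match begins 240 bases before its own start. All these starts are RefSeq starts. By the GENCODE positions given below, the Txnrd1 and Mgst1 matches lie inside those genes, which begin at 82833951 and 138140316.

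The regulators changed by less than 2-fold, Nfe2l2 upward and Keap1 downward in resolution. Nfe2l2 (chromosome 2, 75675513 to 75704641, GRCm38) was at 226, 272, 237 and 234 CPM in homeostasis libraries 1 to 4, 278, 248, 291 and 345 CPM in the inflammation libraries and 339, 298, 407 and 381 CPM in the resolution libraries. Every resolution library was above every homeostasis library, while inflammation overlapped both. It rose in resolution against homeostasis (0.56 ± 0.13 SE, adjusted p = 0.00171, 1.47-fold) and did not pass in inflammation (0.26 ± 0.13 SE, adjusted p = 0.131). It did not pass between resolution and inflammation (0.29 ± 0.13 SE, adjusted p = 0.135), but it did on leaving out resolution 2 (0.37, 0.0425) and in the paired fit (0.28, 0.035). Keap1 (chromosome 9, 21229730 to 21239361), the inhibitor of NRF2, was at 70.3, 66.0, 79.8 and 88.6 CPM in homeostasis libraries 1 to 4, 70.2, 72.3, 62.0 and 66.6 CPM in the inflammation libraries and 60.8, 66.7, 55.7 and 49.2 CPM in the resolution libraries. Resolution had the lowest values and overlapped homeostasis, since resolution 2 lay just above homeostasis 2. Keap1 fell in resolution against homeostasis (-0.39 ± 0.13 SE, adjusted p = 0.0189) and did not pass in inflammation (-0.17 ± 0.13 SE, adjusted p = 0.341). The fall of Keap1 did not pass on leaving out any 1 of homeostasis 4 (-0.31, 0.0694), resolution 3 (-0.36, 0.0524) or resolution 4 (-0.32, 0.0825). It also did not pass with only homeostasis 1 and 2 kept as controls (-0.24, adjusted p = 0.204).

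Genes of glutathione synthesis rose, and the gene of its recycling enzyme fell. Gclc (chromosome 9, 77754535 to 77794485), the catalytic subunit of glutamate-cysteine ligase, which sets the rate of glutathione synthesis, was at 52.6, 57.3, 38.1 and 40.3 CPM in homeostasis libraries 1 to 4, 85.6, 89.6, 139.6 and 164 CPM in the inflammation libraries and 190.1, 150.1, 285 and 234 CPM in the resolution libraries. The 3 groups formed 3 steps, with homeostasis below both others and an overlap between inflammation and resolution, where inflammation 4 lay above resolution 2. Gclc rose in inflammation (1.34 ± 0.22 SE, adjusted p = 8.42e-05, 2.54-fold) and in resolution (2.19 ± 0.22 SE, adjusted p = 1.58e-07, 4.56-fold). It was also higher in resolution than in inflammation (0.84 ± 0.21 SE, adjusted p = 0.0116). That last call was lost on leaving out any 1 of inflammation 1 (0.70, 0.0578), inflammation 2 (0.71, 0.0582) or resolution 3 (0.67, 0.0687).

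Gclm (chromosome 3, 122245557 to 122270732), the modifier subunit of the same ligase, was at 88.9, 113, 82.5 and 85.1 CPM in homeostasis libraries 1 to 4, 119, 108, 147 and 131 CPM in the inflammation libraries and 131, 146, 175 and 149 CPM in the resolution libraries. Resolution lay above homeostasis in every library, and inflammation overlapped homeostasis through homeostasis 2. Gclm rose in inflammation (0.45 ± 0.14 SE, adjusted p = 0.0163) and in resolution (0.70 ± 0.14 SE, adjusted p = 0.000332). The call in inflammation was lost on leaving out any 1 of homeostasis 3 (0.39, 0.0567) or inflammation 3 (0.37, 0.0768) and with only homeostasis 1 and 2 kept as controls (0.32, adjusted p = 0.134).

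Gss, which adds glycine to complete glutathione, stood at 124 ± 20.4, 163 ± 15.0 and 172 ± 21.3 CPM. It rose in both comparisons against homeostasis (0.39 ± 0.14 SE, adjusted p = 0.0308, and 0.47 ± 0.14 SE, adjusted p = 0.00721). Resolution lay above homeostasis in every library. The inflammation call was lost on leaving out any 1 of homeostasis 1 (0.33, 0.0822), homeostasis 3 (0.38, 0.0649), inflammation 1 (0.36, 0.0704), inflammation 2 (0.38, 0.0662) or inflammation 3 (0.42, 0.0512), and with no filter on low counts (0.38, adjusted p = 0.0564), and both calls were lost with only homeostasis 3 and 4 kept as controls (0.27, adjusted p = 0.169, and 0.33, adjusted p = 0.0647). Gsr, glutathione reductase, which regenerates glutathione from its oxidized form with NADPH, went the other way. It was at 83.9, 95.0, 94.8 and 94.0 CPM in homeostasis libraries 1 to 4, 55.6, 54.9, 66.7 and 61.3 CPM in the inflammation libraries and 53.0, 55.4, 58.3 and 54.4 CPM in the resolution libraries. Every homeostasis library was above every library of the other groups, and inflammation and resolution overlapped. Gsr fell in inflammation (-0.63 ± 0.12 SE, adjusted p = 0.000376) and in resolution (-0.73 ± 0.12 SE, adjusted p = 3.66e-05).

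Of 15 further genes of glutathione supply and turnover, all tested, 2 rose and 2 fell in inflammation and 5 rose and 2 fell in resolution, each against homeostasis. Between resolution and inflammation 2 rose and 0 fell. In the 3 comparisons these were 13.3% and 13.3%, 33.3% and 13.3%, and 13.3% and 0% of the 15. The shares of all genes were 19.0% and 18.3%, 27.5% and 25.8%, and 8.52% and 7.64%. Slc7a11, the cystine importer that feeds glutathione synthesis, was at 4.72, 4.22, 7.64 and 5.30 CPM in homeostasis libraries 1 to 4, 29.2, 30.9, 58.5 and 44.2 CPM in the inflammation libraries and 43.4, 26.7, 67.2 and 43.4 CPM in the resolution libraries. Every doxycycline library was above every control, and inflammation and resolution overlapped. It rose 7.50-fold in inflammation (2.91 ± 0.28 SE, adjusted p = 1.29e-07) and 8.33-fold in resolution (3.06 ± 0.28 SE, adjusted p = 3.19e-08). Chac2, which degrades glutathione, stood at 5.19 ± 1.29, 5.10 ± 0.304 and 8.84 ± 0.394 CPM and rose in resolution against inflammation (0.79 ± 0.18 SE, adjusted p = 0.00568).

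Glutathione transferases, which conjugate electrophiles to glutathione, held the largest change among the 40 genes, that of Gsta3. Of the 10 members, 6 rose and 2 fell in inflammation, and 6 rose and 0 fell in resolution, each against homeostasis. These were 60% and 20%, and 60% and 0%, of them, against 19.0% and 18.3%, and 27.5% and 25.8%, of all genes. Gsta3 (chromosome 1, 21240589 to 21265661), an alpha-class enzyme, was at 0.812, 0.646, 0.798 and 0.498 CPM in homeostasis libraries 1 to 4, 13.5, 12.3, 20.4 and 16.1 CPM in the inflammation libraries and 13.8, 14.2, 17.3 and 13.0 CPM in the resolution libraries. It was low in all 4 controls and high in all 8 doxycycline libraries, whose groups overlapped. Gsta3 rose 22.7-fold in inflammation (4.51 ± 0.23 SE, adjusted p = 5.72e-11) and 21.3-fold in resolution (4.41 ± 0.23 SE, adjusted p = 1.55e-11). Gsta4 (chromosome 9, 78182774 to 78209349), the alpha-class enzyme that acts on the lipid peroxidation product 4-hydroxynonenal, was at 24.7, 24.6, 13.3 and 15.0 CPM in homeostasis libraries 1 to 4, 100.2, 97.7, 131 and 92.8 CPM in the inflammation libraries and 77.4, 75.1, 93.6 and 79.2 CPM in the resolution libraries. Homeostasis was lowest, with libraries 1 and 2 above 3 and 4, and inflammation overlapped resolution. Gsta4 rose 5.41-fold (2.44 ± 0.19 SE, adjusted p = 1.08e-08) and 4.18-fold (2.06 ± 0.19 SE, adjusted p = 3.71e-08). Between resolution and inflammation it did not pass (-0.37 ± 0.18 SE, adjusted p = 0.158), but it did with these 8 libraries alone (-0.38, 0.0436) and in the paired fit (-0.38, 0.00668).

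Gstm1 (chromosome 3, 108012255 to 108017973), a mu-class enzyme, was at 25.3, 21.8, 30.4 and 38.8 CPM in homeostasis libraries 1 to 4, 68.9, 64.2, 75.1 and 62.4 CPM in the inflammation libraries and 57.8, 82.8, 87.2 and 67.9 CPM in the resolution libraries. Every doxycycline library lay above every control. It rose in inflammation (1.22 ± 0.17 SE, adjusted p = 1.8e-05) and in resolution (1.35 ± 0.17 SE, adjusted p = 2.68e-06). Its cluster neighbours on chromosome 3 changed less: Gstm2 stood at 47.8 ± 7.90, 68.1 ± 6.15 and 66.3 ± 6.85 CPM (0.51 ± 0.14 SE and 0.47 ± 0.14 SE, both passing) and Gstm5 at 41.1 ± 4.93, 51.6 ± 2.82 and 58.8 ± 4.40 CPM (0.33 ± 0.13 SE and 0.51 ± 0.13 SE, both passing). For Gstm5 in inflammation the adjusted p was 0.0488, and the call was lost on leaving out any 1 of homeostasis 1 (0.35, 0.0698), homeostasis 3 (0.32, 0.0994), homeostasis 4 (0.27, 0.121), inflammation 1 (0.34, 0.0785), inflammation 2 (0.34, 0.0851), inflammation 3 (0.36, 0.0674), inflammation 4 (0.31, 0.0891) or resolution 4 (0.35, 0.0559). It was also lost with only homeostasis 1 and 2 kept as controls (0.22, adjusted p = 0.266) and with no filter on low counts (0.32, adjusted p = 0.159).

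Mgst1 (chromosome 6, 138140316 to 138156755), a membrane-bound transferase with peroxidase activity, was at 38.4, 33.6, 52.0 and 46.7 CPM in homeostasis libraries 1 to 4, 96.6, 88.9, 108 and 119 CPM in the inflammation libraries and 170.3, 130.4, 184 and 170.2 CPM in the resolution libraries. The 3 groups did not overlap and were ordered homeostasis, inflammation, resolution. It rose in inflammation (1.27 ± 0.15 SE, adjusted p = 3.11e-06), in resolution (1.94 ± 0.16 SE, adjusted p = 6.56e-09) and in resolution against inflammation (0.67 ± 0.15 SE, adjusted p = 0.00545). Mgst3 stood at 13.5 ± 1.87, 14.4 ± 0.195 and 12.0 ± 2.37 CPM and passed in no comparison. Gstp1 stood at 112 ± 22.5, 138 ± 11.5 and 130.0 ± 8.90 CPM and passed in no comparison either, but it rose in inflammation on leaving out homeostasis 4 (0.44, 0.0183) and with a filter at 5 CPM in 4 libraries (0.37, 0.0381), with only homeostasis 1 and 2 kept as controls (0.58, 0.00347) and with upper-quartile factors (0.38, 0.0425), and in resolution with only homeostasis 1 and 2 kept as controls (0.48, 0.00998).

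The theta-class genes Gstt1 and Gstt2, neighbours on chromosome 10, were lower in inflammation than in both other groups. Gstt1 was at 15.7, 12.7, 24.2 and 28.6 CPM in homeostasis libraries 1 to 4, 11.6, 14.3, 12.6 and 8.79 CPM in the inflammation libraries and 23.1, 25.5, 15.3 and 21.3 CPM in the resolution libraries. Inflammation lay below resolution in every library and overlapped the low controls 1 and 2. Gstt1 fell in inflammation (-0.78 ± 0.23 SE, adjusted p = 0.0123) and rose from inflammation to resolution (0.85 ± 0.23 SE, adjusted p = 0.0174). Resolution against homeostasis did not pass for it (0.07 ± 0.23 SE, adjusted p = 0.815), although it did upward with only homeostasis 1 and 2 kept as controls (0.58, adjusted p = 0.0363). Gstt2 was at 5.18, 6.03, 10.9 and 12.3 CPM in homeostasis libraries 1 to 4, 5.30, 4.18, 4.26 and 4.02 CPM in the inflammation libraries and 9.17, 8.31, 5.72 and 8.32 CPM in the resolution libraries. Gstt2 in inflammation also lay below resolution in every library, and overlapped homeostasis 1. It fell in inflammation (-0.95 ± 0.25 SE, adjusted p = 0.00531) and rose from inflammation to resolution (0.83 ± 0.25 SE, adjusted p = 0.029). In resolution against homeostasis Gstt2 did not pass (-0.12 ± 0.24 SE, adjusted p = 0.692), although it did downward with only homeostasis 3 and 4 kept as controls (-0.55, adjusted p = 0.0307). With only homeostasis 1 and 2 kept as controls neither gene passed in inflammation (Gstt1 -0.26, adjusted p = 0.373, Gstt2 -0.34, adjusted p = 0.266). The fall of Gstt1 was lost on leaving out any 1 of homeostasis 4 (-0.55, 0.0563) or inflammation 4 (-0.64, 0.0505), and its rise to resolution without inflammation 4 (0.72, 0.0544). The rise of Gstt2 to resolution was lost when replicate numbers entered the fit to all libraries as a block (0.82, adjusted p = 0.051), though not in the paired fit, and without any 1 of inflammation 2 (0.78, 0.0848), inflammation 3 (0.81, 0.0654), inflammation 4 (0.77, 0.0663), resolution 1 (0.74, 0.086) or resolution 4 (0.78, 0.0846).

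Reads of several transferases can be shared. Of the windows of 100 bases in the longest coding transcript of Gstp1, 52.8% occur unchanged in transcripts of another gene, mainly its neighbour Gstp2, so its level is uncertain. The share was 7.73% for Gstm1, 0.622% for Gstm2 and 0% for the other 7 transferase members. All 12 deposited values of Gstm5 were not whole numbers, although its share of windows was 0%, while the values of Gstp1 were all whole. The share of windows therefore does not tell how reads were divided in the counting. Over all genes, 19.0% rose and 18.3% fell in inflammation, 27.5% and 25.8% in resolution, and 8.52% and 7.64% between resolution and inflammation. Of 11 tested transferase genes outside the 40, 6 (54.5%) rose and 1 (9.09%) fell in inflammation and 5 (45.5%) rose and 1 (9.09%) fell in resolution. Between resolution and inflammation 0 rose and 1 (9.09%) fell. That 1 was Mgst2, which stood at 0.972 ± 0.269, 6.74 ± 1.21 and 3.96 ± 1.37 CPM (2.78 ± 0.27 SE, adjusted p = 2e-07, 2.01 ± 0.28 SE, adjusted p = 5.82e-06, and -0.77 ± 0.24 SE, adjusted p = 0.0351 between resolution and inflammation).

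**Figure D2:**
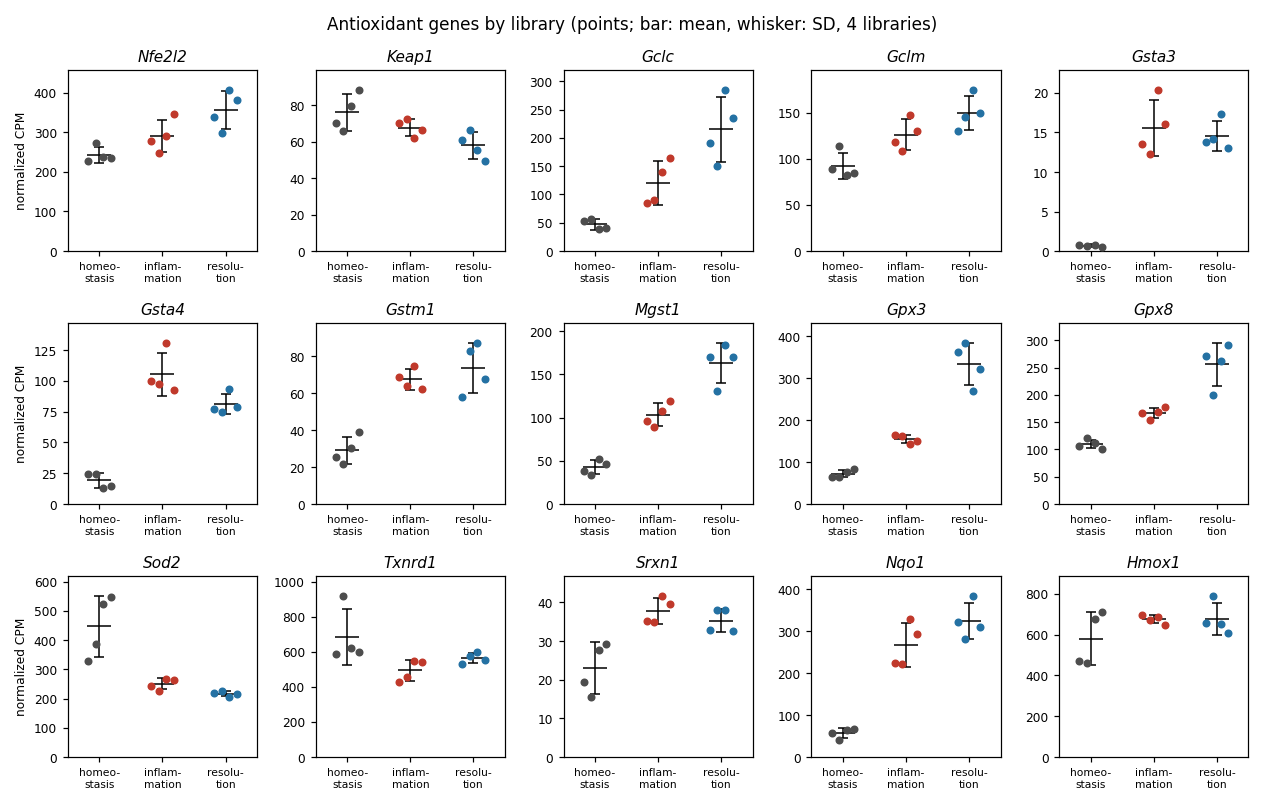
Normalized CPM (y axis, from 0) of 15 genes in each of the 12 libraries (points, in replicate order) by group (x axis), with the mean (bar) and SD (whisker) of 4 libraries. Gsta3 is near 0 in the 4 homeostasis libraries (0.812, 0.646, 0.798 and 0.498 CPM), the 3 groups of Mgst1, Gpx3 and Gpx8 do not overlap, and Hmox1 overlaps between all groups.

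Among peroxidases, catalase and superoxide dismutases, Gpx3 and Gpx8 rose in steps from homeostasis to resolution, Sod2 and Gpx7 fell, and Sod3 was highest in inflammation. Of the 9 members, 4 rose and 2 fell in inflammation, and 3 rose and 2 fell in resolution. These were 44.4% and 22.2%, and 33.3% and 22.2%, of them, against 19.0% and 18.3%, and 27.5% and 25.8%, of all genes. Gpx3 (chromosome 11, 54902453 to 54910377), the secreted glutathione peroxidase of plasma, was at 65.6, 64.6, 76.7 and 84.1 CPM in homeostasis libraries 1 to 4, 164, 161, 144 and 149 CPM in the inflammation libraries and 362, 385, 269 and 321 CPM in the resolution libraries. The 3 groups did not overlap, and resolution was highest. Gpx3 rose in inflammation (1.09 ± 0.14 SE, adjusted p = 4.11e-06) and in resolution (2.20 ± 0.14 SE, adjusted p = 1.84e-10). It rose again from inflammation to resolution by 2.16-fold (1.11 ± 0.13 SE, adjusted p = 8.9e-06), the 1 member to pass there with at least 2-fold. Gpx8 (chromosome 13, 113042753 to 113046410), a peroxidase of the endoplasmic reticulum membrane, was at 107, 120.2, 112 and 101 CPM in homeostasis libraries 1 to 4, 167, 154, 169 and 178 CPM in the inflammation libraries and 272, 199.8, 263 and 291 CPM in the resolution libraries. It had the same order of groups with no overlap. Gpx8 rose in inflammation (0.60 ± 0.13 SE, adjusted p = 0.00116), in resolution (1.22 ± 0.13 SE, adjusted p = 2.68e-07) and between them (0.62 ± 0.13 SE, adjusted p = 0.0025).

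Gpx7, the related peroxidase of the endoplasmic reticulum lumen, fell while Gpx8 rose. It was at 44.3, 42.2, 50.6 and 58.2 CPM in homeostasis libraries 1 to 4, 38.2, 33.7, 31.1 and 27.1 CPM in the inflammation libraries and 33.9, 30.5, 23.8 and 26.2 CPM in the resolution libraries, with every control above every other library. Gpx7 fell in inflammation (-0.59 ± 0.15 SE, adjusted p = 0.00571) and in resolution (-0.77 ± 0.16 SE, adjusted p = 0.00035). The first call was lost with only homeostasis 1 and 2 kept as controls (-0.41, adjusted p = 0.0743). Gpx1, the main cytosolic glutathione peroxidase, stood at 339 ± 38.5, 458 ± 73.1 and 373 ± 46.9 CPM. It rose in inflammation (0.43 ± 0.14 SE, adjusted p = 0.0197) and did not pass in resolution (0.14 ± 0.14 SE, adjusted p = 0.415). Between resolution and inflammation it passed downward in the paired fit (-0.30, 0.0246) and not with all libraries (-0.29 ± 0.14 SE, adjusted p = 0.153). The rise in inflammation was lost on leaving out any 1 of homeostasis 1 (0.39, 0.0518), homeostasis 3 (0.41, 0.0502), inflammation 1 (0.37, 0.0609) or inflammation 2 (0.40, 0.0552) and with only homeostasis 3 and 4 kept as controls (0.40, adjusted p = 0.0632). Gpx4, which reduces lipid peroxides in membranes, stood at 101 ± 15.9, 102 ± 12.6 and 98.2 ± 11.5 CPM and passed in no comparison. In Gpx4 48.4% of the windows are shared with another gene, mainly the pseudogene Gpx4-ps2.

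Cat, catalase, stood at 110.2 ± 12.2, 141 ± 33.2 and 179.9 ± 24.8 CPM. It rose in resolution (0.71 ± 0.16 SE, adjusted p = 0.000827), with every resolution library above every control, and did not pass in inflammation (0.36 ± 0.16 SE, adjusted p = 0.076). It did pass in inflammation on leaving out inflammation 2 (0.47, 0.0397) and with a filter at 5 CPM in 4 libraries (0.42, 0.0445), with only homeostasis 3 and 4 kept as controls (0.52, 0.0362) and with upper-quartile factors (0.43, 0.0304). Cat did not pass between resolution and inflammation (0.35 ± 0.16 SE, adjusted p = 0.13), but it did on leaving out inflammation 4 (0.51, 0.027) or resolution 2 (0.43, 0.0451) and in the paired fit (0.35, 0.0148). The 3 superoxide dismutases gave different calls. Sod1, the cytosolic enzyme, stood at 113 ± 11.4, 115 ± 13.9 and 99.9 ± 2.74 CPM and passed in no comparison. Sod2 (chromosome 17, 13006846 to 13040063), the mitochondrial enzyme and a known target of NF-kB, was at 330.0, 387, 525 and 547 CPM in homeostasis libraries 1 to 4, 244, 227, 268 and 265 CPM in the inflammation libraries and 219, 227, 205 and 217 CPM in the resolution libraries. The 3 groups did not overlap, with homeostasis 3 and 4 highest and resolution lowest, although inflammation 2 and resolution 2 were nearly equal. Sod2 fell in inflammation (-0.83 ± 0.15 SE, adjusted p = 0.000195) and in resolution (-1.04 ± 0.15 SE, adjusted p = 8.32e-06), where it was the 1 member lower by at least 2-fold.

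Sod3, the extracellular superoxide dismutase that binds matrix heparan sulfate, was at 267, 219, 377 and 486 CPM in homeostasis libraries 1 to 4, 603, 634, 684 and 639.9 CPM in the inflammation libraries and 331, 478, 361 and 359.8 CPM in the resolution libraries. Inflammation lay above both other groups in every library, and resolution overlapped homeostasis. Sod3 rose in inflammation (0.92 ± 0.19 SE, adjusted p = 0.000782) and fell from inflammation to resolution (-0.74 ± 0.19 SE, adjusted p = 0.0116). Against homeostasis it did not pass in resolution (0.18 ± 0.19 SE, adjusted p = 0.431), but it did on leaving out homeostasis 4 (0.41, 0.0438) and with only homeostasis 1 and 2 kept as controls (0.64, 0.0027). The macrophage markers, whose sums are given above, also rose in inflammation and were lower in resolution. Their part in the level of Sod3 was not tested. Of 8 tested genes of this role outside the 40, 4 rose and 0 fell in inflammation, 3 rose and 1 fell in resolution, and 0 passed between resolution and inflammation (2 of the 8 had an unadjusted p under 0.05 in edgeR). Against homeostasis these are 50% and 0%, and 37.5% and 12.5%, of the 8, against 19.0% and 18.3%, and 27.5% and 25.8%, of all genes. Between resolution and inflammation 16.2% of all genes passed.

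In the thioredoxin system Srxn1 and Prdx1 rose, while thioredoxin itself passed in no comparison. Of the 6 members, 2 rose and 1 fell in inflammation, and 2 rose and 0 fell in resolution. These were 33.3% and 16.7%, and 33.3% and 0%, of them, against 19.0% and 18.3%, and 27.5% and 25.8%, of all genes. Srxn1 (chromosome 2, 152105516 to 152111376), sulfiredoxin, which repairs overoxidized peroxiredoxins, was at 19.4, 15.5, 27.8 and 29.3 CPM in homeostasis libraries 1 to 4, 35.3, 34.8, 41.8 and 39.6 CPM in the inflammation libraries and 32.8, 37.9, 37.9 and 32.5 CPM in the resolution libraries. Every doxycycline library was above every control, and homeostasis 1 and 2 were lower than 3 and 4. Srxn1 rose in inflammation (0.72 ± 0.18 SE, adjusted p = 0.00306) and in resolution (0.62 ± 0.18 SE, adjusted p = 0.0056), the latter not passing with only homeostasis 3 and 4 kept as controls (0.31, adjusted p = 0.0822). Prdx1, the cytosolic peroxiredoxin that sulfiredoxin acts on, was at 351, 317, 349 and 327 CPM in homeostasis libraries 1 to 4, 619.7, 539.9, 734 and 662 CPM in the inflammation libraries and 559, 545, 645 and 574 CPM in the resolution libraries. The controls were close together and below every other library. Prdx1 rose in inflammation (0.93 ± 0.12 SE, adjusted p = 8.1e-06) and in resolution (0.79 ± 0.12 SE, adjusted p = 2.27e-05).

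Txnrd1 (chromosome 10, 82833951 to 82897712), thioredoxin reductase, was at 586, 920.1, 622 and 602 CPM in homeostasis libraries 1 to 4, 426, 459, 550.2 and 542 CPM in the inflammation libraries and 529, 577, 598 and 554 CPM in the resolution libraries. Homeostasis 2 stood far above the other libraries, and inflammation lay below every control. Txnrd1 fell in inflammation (-0.47 ± 0.15 SE, adjusted p = 0.0171) and did not pass in resolution (-0.27 ± 0.15 SE, adjusted p = 0.12). The fall was lost on leaving out any 1 of homeostasis 2 (-0.27, 0.1), inflammation 1 (-0.39, 0.0742) or inflammation 2 (-0.41, 0.0662) and with only homeostasis 3 and 4 kept as controls (-0.28, adjusted p = 0.111). In resolution it passed downward with only homeostasis 1 and 2 kept as controls (-0.43, adjusted p = 0.0389). Txn1, thioredoxin, stood at 209 ± 25.0, 221 ± 4.15 and 219.5 ± 25.5 CPM, Prdx2 at 359 ± 83.8, 389.8 ± 56.9 and 311 ± 32.3 CPM and Prdx6, which also acts on phospholipid peroxides, at 524 ± 125, 635 ± 49.3 and 539 ± 47.3 CPM. None of these 3 passed in any comparison with all libraries, and between resolution and inflammation 0 of the 6 members passed, with 0 at an unadjusted p under 0.05 in edgeR. Under other settings some did. Prdx6 rose in inflammation on leaving out homeostasis 4 (0.42, 0.0332) and with only homeostasis 1 and 2 kept as controls (0.61, 0.00259), and in resolution with only homeostasis 1 and 2 kept as controls (0.36, 0.047). Prdx2 rose in inflammation with only homeostasis 1 and 2 kept as controls (0.43, 0.0422) and fell in resolution with only homeostasis 3 and 4 kept as controls (-0.45, 0.016), and from inflammation to resolution in the paired fit (-0.33, 0.0153). Of 11 further genes of this system, 0 rose and 3 fell in inflammation, 2 rose and 3 fell in resolution, and 0 passed between resolution and inflammation in edgeR, where 1 had an unadjusted p under 0.05. Against homeostasis these are 0% and 27.3%, and 18.2% and 27.3%, of the 11, against 19.0% and 18.3%, and 27.5% and 25.8%, of all genes. Between resolution and inflammation 16.2% of all genes passed.

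Genes grouped here under supply of NADPH, the electron source of both systems, include further enzymes of the pentose phosphate pathway, and mostly did not pass. Of the 4 members, Taldo1 alone passed in either comparison against homeostasis. That is a rise in 25% of them, against 19.0% and 27.5% of all genes, and so near those shares. Between resolution and inflammation 0 of 4 passed in edgeR (1 had an unadjusted p under 0.05). Taldo1, transaldolase of the pentose phosphate pathway, was at 179, 175, 229.5 and 260.1 CPM in homeostasis libraries 1 to 4, 344, 312, 337 and 265 CPM in the inflammation libraries and 289, 307, 278 and 279 CPM in the resolution libraries. Every doxycycline library was above every control. It rose in inflammation (0.58 ± 0.14 SE, adjusted p = 0.00302) and in resolution (0.45 ± 0.14 SE, adjusted p = 0.0103), the latter not passing with only homeostasis 3 and 4 kept as controls (0.24, adjusted p = 0.137). Pgd, 6-phosphogluconate dehydrogenase, stood at 661 ± 91.1, 737 ± 44.1 and 643 ± 58.0 CPM. Tkt, transketolase, stood at 652 ± 129, 678 ± 50.8 and 521 ± 70.2 CPM. It passed downward in resolution against homeostasis on leaving out any 1 of homeostasis 1 (-0.40, 0.0295), homeostasis 2 (-0.39, 0.0302) or resolution 2 (-0.42, 0.019) and with only homeostasis 3 and 4 kept as controls (-0.54, 0.0032). Against inflammation it did so on leaving out any 1 of homeostasis 2 (-0.39, 0.0481), homeostasis 4 (-0.39, 0.0468) or resolution 2 (-0.47, 0.0203) and with these 8 libraries alone (-0.39, 0.032) and in the paired fit (-0.40, 0.00488). Me1, the cytosolic malic enzyme, stood at 88.9 ± 9.51, 88.6 ± 10.5 and 107 ± 11.3 CPM, and 14.5% of its windows are shared with pseudogenes. It passed upward in resolution against homeostasis on leaving out resolution 2 (0.33, 0.0336) and with a filter at 5 CPM in 4 libraries (0.33, 0.0378) and with only homeostasis 3 and 4 kept as controls (0.41, 0.025).

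Outside the 40, 14 further genes of NADPH and folate-linked supply were tested, of which 2 rose and 6 fell in inflammation, 2 rose and 5 fell in resolution, and 1 rose and 2 fell between resolution and inflammation. In the 3 comparisons these were 14.3% and 42.9%, 14.3% and 35.7%, and 7.14% and 14.3% of the 14. The shares of all genes were 19.0% and 18.3%, 27.5% and 25.8%, and 8.52% and 7.64%. The lower genes of the 14 were led by mitochondrial enzymes. Idh2, the mitochondrial isocitrate dehydrogenase that makes NADPH, was at 102, 128, 99.0 and 128 CPM in homeostasis libraries 1 to 4, 41.6, 36.1, 31.2 and 27.3 CPM in the inflammation libraries and 20.4, 24.3, 14.7 and 18.9 CPM in the resolution libraries. The 3 groups did not overlap, and resolution was lowest. Idh2 fell in inflammation (-1.75 ± 0.17 SE, adjusted p = 1.63e-07), in resolution (-2.54 ± 0.17 SE, adjusted p = 6.12e-10) and between them (-0.80 ± 0.17 SE, adjusted p = 0.00292). Mthfd2 and Mthfd1l, enzymes of mitochondrial folate metabolism, stood at 90.6 ± 16.8, 35.7 ± 1.90 and 24.6 ± 3.45 CPM and at 171 ± 15.7, 70.4 ± 7.41 and 62.5 ± 5.61 CPM. Both fell in inflammation (-1.35 ± 0.15 SE, adjusted p = 9.33e-07, and -1.28 ± 0.13 SE, adjusted p = 2e-07) and in resolution (-1.88 ± 0.15 SE, adjusted p = 5.73e-09, and -1.45 ± 0.13 SE, adjusted p = 1.73e-08). Rpe, an epimerase of the pentose phosphate pathway, stood at 18.3 ± 1.99, 26.7 ± 2.02 and 41.0 ± 7.40 CPM and rose in resolution against inflammation (0.62 ± 0.15 SE, adjusted p = 0.00846).

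Among the genes of quinone, heme, iron and epoxide handling, Nqo1 rose strongly and Hmox1 did not pass. Of the 5 members, 2 rose in inflammation and 3 in resolution, and 0 fell in either. The rises were 40% and 60% of them, against 19.0% and 27.5% of all genes. Nqo1 (chromosome 8, 107388225 to 107403206), the quinone reductase widely used as a readout of NRF2, was at 58.0, 40.0, 63.9 and 67.0 CPM in homeostasis libraries 1 to 4, 225, 222, 328 and 292 CPM in the inflammation libraries and 322, 282, 384 and 311 CPM in the resolution libraries. All 8 doxycycline libraries were above the controls, with inflammation 1 and 2 below inflammation 3 and 4 and an overlap with resolution. Nqo1 rose 4.66-fold in inflammation (2.22 ± 0.17 SE, adjusted p = 1.07e-08) and 5.68-fold in resolution (2.51 ± 0.18 SE, adjusted p = 8.63e-10). Nqo1 did not pass between resolution and inflammation (0.28 ± 0.17 SE, adjusted p = 0.244), but it did in the paired fit (0.28, 0.0371).

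Hmox1 (chromosome 8, 75093621 to 75100589), heme oxygenase 1, which breaks down heme and is induced by NRF2 once the repressor BACH1 is released, was at 472, 461, 676 and 711 CPM in homeostasis libraries 1 to 4, 694, 669.7, 686 and 648 CPM in the inflammation libraries and 655, 790.4, 652 and 609 CPM in the resolution libraries. Homeostasis 3 and 4 lay among the doxycycline libraries, while homeostasis 1 and 2 lay below all of them. It did not pass in inflammation (0.22 ± 0.15 SE, adjusted p = 0.254) or in resolution (0.22 ± 0.15 SE, adjusted p = 0.207). With only homeostasis 1 and 2 kept as controls it passed upward in both (0.53, adjusted p = 0.00696, and 0.52, adjusted p = 0.00583). With homeostasis 3 and 4 the fold changes were -0.02, adjusted p = 0.94, and -0.03, adjusted p = 0.88. Whether Hmox1 passed thus depended on which controls were used.

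Fth1, the heavy chain of the iron store ferritin, was at 4969, 5633, 6514 and 6876 CPM in homeostasis libraries 1 to 4, 8196, 7743, 8997 and 8336 CPM in the inflammation libraries and 8330.3, 8785, 9011 and 8204 CPM in the resolution libraries. Every doxycycline library was above every control. Fth1 rose in inflammation (0.47 ± 0.12 SE, adjusted p = 0.00514) and in resolution (0.52 ± 0.12 SE, adjusted p = 0.00154). With only homeostasis 3 and 4 kept as controls the first did not pass (0.34, adjusted p = 0.0501). Ftl1, the light chain, stood at 787 ± 79.2, 831 ± 127 and 638 ± 71.8 CPM and passed in no comparison, and 60.4% of its windows are shared with other ferritin sequences. It passed downward in resolution against homeostasis on leaving out either of homeostasis 1 (-0.35, 0.0497) or resolution 2 (-0.36, 0.0313) and with only homeostasis 3 and 4 kept as controls (-0.40, 0.0328). Against inflammation it did so on leaving out any 1 of homeostasis 2 (-0.39, 0.0443), homeostasis 4 (-0.39, 0.0437), inflammation 4 (-0.47, 0.0261) or resolution 2 (-0.44, 0.0238) and with DESeq2 (-0.39, 0.0319), with these 8 libraries alone (-0.39, 0.0432), in the paired fit (-0.39, 0.00654) and with upper-quartile factors (-0.43, 0.0453). Ephx1, the microsomal epoxide hydrolase, was at 399, 445, 462 and 522 CPM in homeostasis libraries 1 to 4, 594, 575, 555 and 485 CPM in the inflammation libraries and 801, 855, 674 and 685 CPM in the resolution libraries. Resolution lay above every other library. Ephx1 rose in resolution against homeostasis (0.72 ± 0.13 SE, adjusted p = 9.78e-05) and against inflammation (0.45 ± 0.13 SE, adjusted p = 0.0216), and did not pass in inflammation (0.27 ± 0.13 SE, adjusted p = 0.0979). In inflammation it did pass on leaving out homeostasis 4 (0.36, 0.0437) or inflammation 4 (0.35, 0.0492) and with a filter at 5 CPM in 4 libraries (0.33, 0.0356), with only homeostasis 1 and 2 kept as controls (0.39, 0.0499) and with upper-quartile factors (0.35, 0.0484). Its rise from inflammation to resolution was lost on leaving out any 1 of inflammation 2 (0.45, 0.056), inflammation 3 (0.45, 0.0539), inflammation 4 (0.38, 0.0589) or resolution 1 (0.41, 0.0676).

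**Figure D3:**
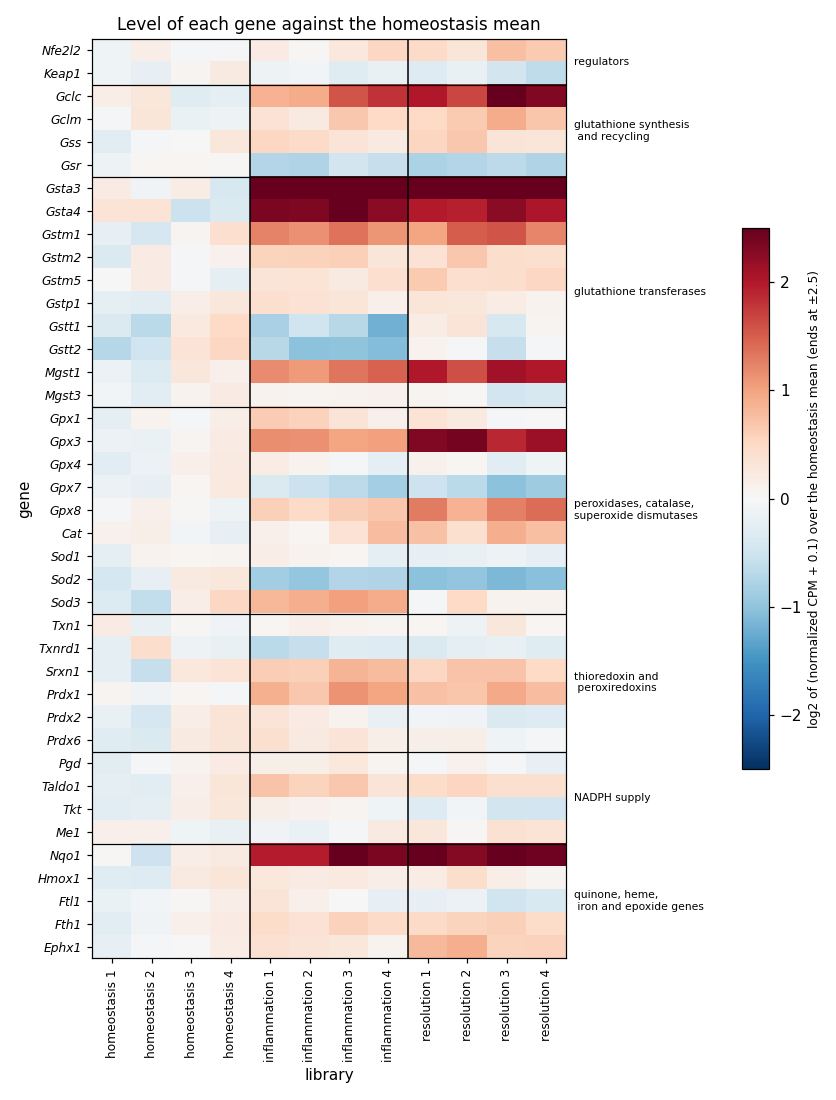
Colour gives the log2 ratio of normalized CPM (plus 0.1) to the homeostasis mean for each of the 40 genes (rows, grouped by role) in each library (columns), with the scale ending at ±2.5. Gsta3, Gsta4, Nqo1, Gclc, Mgst1 and Gpx3 are the darkest red rows, Sod2, Gsr and Gpx7 are blue in both doxycycline groups, and Gstt1 and Gstt2 are blue in inflammation.

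Of 24 tested genes of this role outside the 40, 10 rose and 1 fell in inflammation and 12 rose and 2 fell in resolution. Between resolution and inflammation, 2 rose and 0 fell. In the 3 comparisons these were 41.7% and 4.17%, 50% and 8.33%, and 8.33% and 0% of the 24. The shares of all genes were 19.0% and 18.3%, 27.5% and 25.8%, and 8.52% and 7.64%. Aldh3a1, an aldehyde dehydrogenase, was at 25.4, 26.7, 28.1 and 43.4 CPM in homeostasis libraries 1 to 4, 146, 140.0, 192 and 141 CPM in the inflammation libraries and 142, 177, 170.0 and 135 CPM in the resolution libraries. The doxycycline groups overlapped, and both lay above every control. Aldh3a1 rose in inflammation (2.32 ± 0.17 SE, adjusted p = 6.4e-09) and in resolution (2.34 ± 0.17 SE, adjusted p = 1.99e-09). Aldh1a1, which makes retinoic acid, was at 2.64, 2.80, 1.54 and 1.68 CPM in homeostasis libraries 1 to 4, 4.84, 4.63, 5.58 and 6.23 CPM in the inflammation libraries and 34.4, 20.1, 30.8 and 31.4 CPM in the resolution libraries. The 3 groups did not overlap, and resolution stood far above inflammation. Aldh1a1 rose in inflammation (1.27 ± 0.22 SE, adjusted p = 0.000185), in resolution 13.3-fold (3.73 ± 0.23 SE, adjusted p = 9.28e-11) and from inflammation to resolution (2.45 ± 0.21 SE, adjusted p = 7.77e-08).

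The further regulators of NRF2, among them its partners of the small MAF family, BACH1 and CUL3, were 13 tested genes. In inflammation 0 rose and 1 fell, in resolution 4 rose and 2 fell, and between resolution and inflammation 0 rose and 1 fell. The shares of all genes were 19.0% and 18.3%, 27.5% and 25.8%, and 8.52% and 7.64%. Those of the 13 regulators were 0% and 7.69%, 30.8% and 15.4%, and 0% and 7.69%. None rose by at least 2-fold in any comparison, and 1, Palb2, a binding partner of KEAP1 named here after its values were seen, fell by at least 2-fold in resolution (-1.36 ± 0.28 SE, adjusted p = 0.000423). Of 12 tested genes for sources of reactive oxygen, 9 rose and 1 fell in inflammation, 5 rose and 4 fell in resolution, and 3 rose and 5 fell between resolution and inflammation. These are 75% and 8.33%, 41.7% and 33.3%, and 25% and 41.7% of the 12, to be set beside the same shares of all genes. The subunits of the phagocyte NADPH oxidase were high in inflammation and lowest in resolution. Ncf1 stood at 2.42 ± 0.841, 9.46 ± 1.22 and 0.385 ± 0.235 CPM, Ncf4 at 1.97 ± 0.380, 5.82 ± 0.954 and 0.270 ± 0.267 CPM and Cybb at 3.78 ± 1.08, 13.6 ± 7.90 and 1.46 ± 0.955 CPM. From inflammation to resolution they fell (-4.58 ± 0.33 SE, adjusted p = 7.22e-09, -4.39 ± 0.42 SE, adjusted p = 4.74e-07, and -3.20 ± 0.47 SE, adjusted p = 0.000144). Macrophage markers had the same order of groups (sums of 143 to 179, 691 to 755 and 64.7 to 74.0 CPM), with Cx3cr1 at 0 in inflammation and resolution. Their part in these subunits was not tested. The further pathway genes, like the 40, were chosen with earlier results of these data known. Over all 108 tested pathway genes outside the 40, 33 rose and 15 fell in inflammation, 38 rose and 20 fell in resolution, and 8 rose and 9 fell between resolution and inflammation. These are 30.6% and 13.9%, 35.2% and 18.5%, and 7.41% and 8.33% of them, against 19.0% and 18.3%, 27.5% and 25.8%, and 8.52% and 7.64% of all genes, so the last pair lies near the share of all genes.

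**Figure D4:**
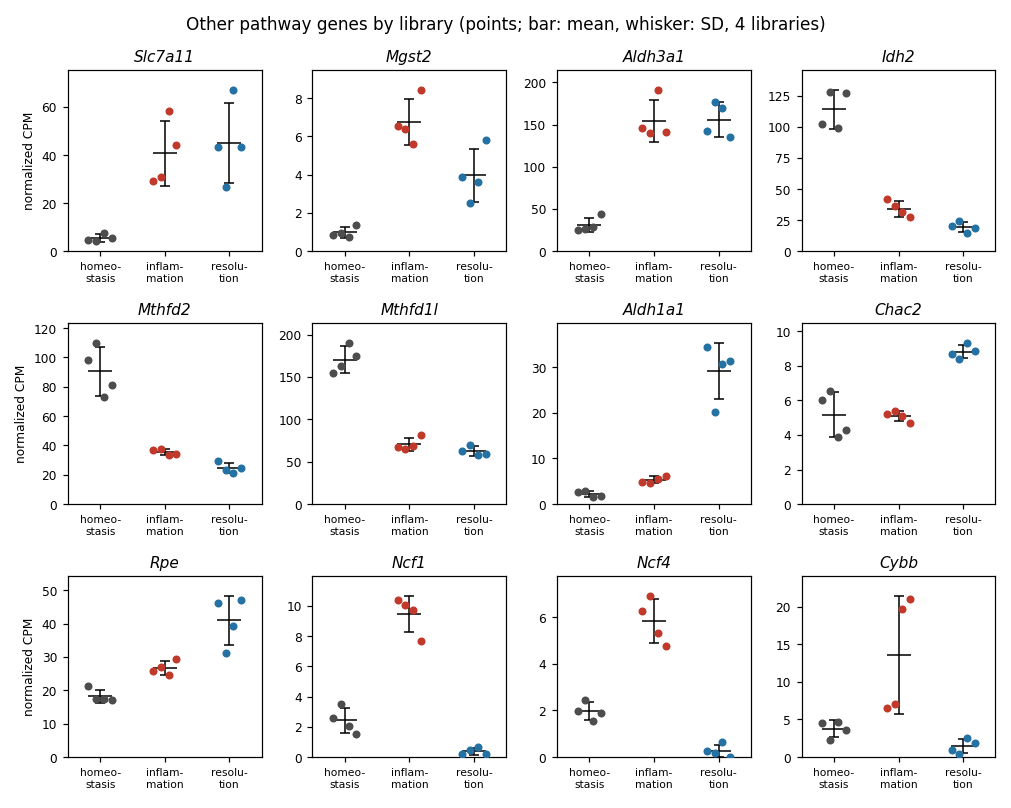
Normalized CPM (y axis, from 0) of 12 other genes of the pathway in each library (points, in replicate order) by group (x axis), with the mean (bar) and SD (whisker) of 4 libraries. Slc7a11 and Aldh3a1 are high in both doxycycline groups, Aldh1a1 is highest in resolution (29.2 CPM on average), Idh2 is lowest there (19.6 CPM), and Ncf1, Ncf4 and Cybb are highest in inflammation.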

How the data were processed

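The authors deposited 1 table of expected counts for 12 poly(A) RNA libraries and 36930 gene entries, without normalization. The genome build is GRCm38.p3, per the submitters' processing notes, while no source used here names the aligner, the counting tool or the strand setting. Of the deposited counts 1.43% were not whole numbers. Entries with no value (13) were left out, 42 repeated entries were summed, and counts were rounded. Groups and replicate numbers came from the sample titles.

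Library sizes were scaled by TMM, and genes were kept by the expression filter of edgeR (4.0.16, R 4.3.3), which left 15049. A floor of 3 counts per library corresponds to 0.0858 to 0.166 CPM, which covers counting error only. The quasi-likelihood test with robust moderation used the 12 libraries in 1 fit, with group as its sole term and Benjamini-Hochberg adjustment. DESeq2 1.42.0, other scaling and filters, the 2 groups alone, 2 controls alone and leaving out each library were alternatives. The scripts were tested on simulated data. The 40 genes and the lists were chosen with earlier results of these data known, as were the 113 further pathway genes, of which 112 were found, 3 of them under an older symbol of RefSeq, and 108 were tested. Named in full were 8 regulators and targets, and members past the threshold with at least 2-fold, and of the further genes the 3 largest rises and falls per comparison with at least 5 CPM. Positions come from GENCODE M21 (GRCm38). Same-numbered inflammation and resolution libraries deviated together (correlations 0.13 to 0.21, each over 0.1), a pairing seen in the data, as no label says what a number shares. The reported tests carry no block. A fit to these 8 libraries with the block was added after the data were seen.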

Additional observations from a re-analysis of the deposited data

Results flagged for a closer look

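In 4 of 120 combinations of gene and group, 1 library stood apart from the other 3 by Dixon's criterion, which chance alone meets in about 1 in 20 groups. Txnrd1 was at 920.1 CPM in homeostasis 2, against 586 to 622 CPM in the other controls. Gsr was at 83.9 CPM in homeostasis 1, against 94.0 to 95.0 CPM. Sod1 was at 96.4 CPM in homeostasis 1, against 117 to 121 CPM. Gstm2 was at 59.0 CPM in inflammation 4, against 70.0 to 71.9 CPM.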

How the results depend on the processing

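No called fold change of the 40 genes changed sign under any alternative. Sign changes occurred only in fold changes that had not passed, and passed in none of them. With only homeostasis 3 and 4 as controls the sign changed to Ftl1 -0.00276, Gpx4 -0.146, Hmox1 -0.0155, Me1 0.157, Mgst3 -0.0337, Prdx2 -0.108, Sod1 -0.0143, Tkt -0.145 in inflammation against homeostasis, and Gstt1 -0.304, Hmox1 -0.0262, Prdx6 -0.218, Sod3 -0.164 in resolution against homeostasis. With no filter on low counts the sign changed to Gpx4 -0.00234 in inflammation against homeostasis, and Hmox1 -0.00238 in resolution against inflammation. With a filter at 5 CPM in 4 libraries the sign changed to Me1 0.0549 in inflammation against homeostasis, and Gpx4 0.0193, Pgd 0.0266 in resolution against homeostasis. With the 2 groups alone the sign changed to Me1 0.0273 in inflammation against homeostasis, and Hmox1 -0.00696 in resolution against inflammation. With upper-quartile factors the sign changed to Me1 0.0672 in inflammation against homeostasis, and Fth1 -0.00497, Hmox1 -0.0446 in resolution against inflammation. With only homeostasis 1 and 2 as controls the sign changed to Gpx4 0.144, Gstt2 0.474, Pgd 0.106, Prdx2 0.0915 in resolution against homeostasis. With DESeq2 the sign changed to Hmox1 -0.00151 in resolution against inflammation. With the inflammation and resolution libraries alone and the block the sign changed to Hmox1 -0.0133 in resolution against inflammation. Leaving out 1 library at a time, the values ran from negative to positive for Fth1 -0.00107 to 0.082, Gpx4 -0.134 to 0.00524, Gsta3 -0.206 to 0.0576, Hmox1 -0.0809 to 0.0352, Txn1 -0.0971 to 0.0461 in resolution against inflammation, and Gpx4 -0.0472 to 0.106, Me1 -0.0761 to 0.0619, Sod1 -0.0302 to 0.116, Tkt -0.00561 to 0.177 in inflammation against homeostasis, and Gpx4 -0.115 to 0.0394, Gstt1 -0.094 to 0.288, Gstt2 -0.289 to 0.11, Pgd -0.114 to 0.034, Prdx6 -0.0511 to 0.166 in resolution against homeostasis. Counts of the 40 genes that rose or fell stayed within 1.5 times of those reported, with these exceptions. With only homeostasis 1 and 2 as controls 3 genes, not 6, fell in inflammation. With only homeostasis 3 and 4 as controls 8 genes, not 4, fell in resolution. Between resolution and inflammation, where 1 gene fell, the count was 2 with upper-quartile factors, 4 with those 8 libraries alone, 2 with DESeq2 and 6 with those 8 libraries and the replicate block, the cause of which was not tested. Leaving out each library in turn gave 14 to 20 genes higher and 5 to 6 lower in inflammation, 19 to 20 and 3 to 6 in resolution, and 4 to 9 and 1 to 3 between them. The lowest count of rises there, 4, came without inflammation 2.

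Replicate numbers did not pair homeostasis with the other groups (correlations from -0.23 to 0.08, with 1 of 4 homeostasis libraries at most matching its own number best), and 3 of 4 matched best between inflammation and resolution. With the replicate number as a block in the fit to all 12 libraries, which also ties homeostasis libraries to numbers, 22 of the 24 genes called in inflammation kept the call, Gss (0.39, adjusted p = 0.0568) and Gstm5 (0.33, adjusted p = 0.0793) being lost, 23 of 23 in resolution, and 7 of 8 between them, Gstt2 (0.82, adjusted p = 0.051) being lost. The block gave 16, 19 and 6 genes higher and 6, 4 and 1 lower, and no other call of the 40 genes changed. Over all genes it gave 5053, 7589 and 1898 calls, against 5602, 8025 and 2431. With the inflammation and resolution libraries alone the block gave 4808 calls, and 8 of 8 called members kept the call. Over all libraries the member with the fewest reads held 1819 counts, and at 4 libraries a group their number limits the precision.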

Other observations

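Further transferase and redox genes outside the 40 also changed, and those named here were chosen after their values were seen. Gsta1 and Gsta2, close relatives whose reads may be shared, stood at 0.369 ± 0.261, 2.79 ± 0.809 and 2.79 ± 0.295 CPM and at 0.0761 ± 0.0910, 2.10 ± 0.862 and 2.23 ± 0.640 CPM in the order homeostasis, inflammation, resolution, with edgeR adjusted p-values of 7.13e-06 and 3.7e-06 in inflammation against homeostasis. Gstk1, the kappa-class enzyme of mitochondria and peroxisomes, stood at 4.52 ± 0.782, 8.54 ± 1.03 and 10.2 ± 1.34 CPM and rose in inflammation (0.91 ± 0.18 SE, adjusted p = 0.000473) and in resolution (1.17 ± 0.18 SE, adjusted p = 1.72e-05). Selenow, a small selenoprotein, stood at 82.6 ± 8.73, 212 ± 33.1 and 162 ± 9.47 CPM and rose in inflammation (1.36 ± 0.13 SE, adjusted p = 2.16e-07) and in resolution (0.97 ± 0.13 SE, adjusted p = 5.75e-06). Blvrb, a reductase of flavins and biliverdin, stood at 34.7 ± 6.12, 82.4 ± 6.41 and 78.1 ± 8.76 CPM and rose in both comparisons against homeostasis (1.25 ± 0.14 SE, adjusted p = 1.79e-06, and 1.17 ± 0.14 SE, adjusted p = 1.8e-06).

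Txnip, which binds and inhibits thioredoxin, stood at 87.1 ± 5.42, 56.7 ± 7.97 and 46.7 ± 1.10 CPM and fell in both (-0.62 ± 0.12 SE, adjusted p = 0.000684, and -0.90 ± 0.13 SE, adjusted p = 7.31e-06). G6pdx, the first enzyme of the pentose phosphate pathway and a textbook NRF2 target, stood at 216 ± 17.9, 171 ± 15.5 and 185 ± 15.3 CPM and fell in inflammation (-0.33 ± 0.12 SE, adjusted p = 0.0336), and did not pass in resolution (-0.22 ± 0.12 SE, adjusted p = 0.122). Nox4, the NADPH oxidase of fibroblasts, stood at 5.54 ± 0.666, 10.0 ± 1.62 and 13.8 ± 2.96 CPM and rose in inflammation (0.86 ± 0.19 SE, adjusted p = 0.00136) and in resolution (1.32 ± 0.19 SE, adjusted p = 9.02e-06).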
